A study of Mus musculus with 11 samples.

Results

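The comparison described here sets microglia that lack Tyrobp but keep both copies of Inpp5d against microglia with both genes intact, in mice with amyloid plaques. It rests on 5 of the 11 RNA sequencing libraries of the study, namely 2 of genotype Tyrobp-/-;NLGF and 3 of genotype NLGF, chosen by the genotype label and by the matching prefix of the count table's columns. All mice were C57BL/6 and 9 to 10 months old, and both groups carried the App NLGF knock-in, in which the mouse App gene holds a humanised amyloid sequence with familial Alzheimer mutations and stays under its own promoter. The RNA came from living brain cells positive for CD11b and CD45, a sort meant to hold microglia, and was made into full-length cDNA libraries. The libraries of genotype Tyrobp-/-;NLGF are called the Tyrobp nulls where their values are given. The remaining 6 libraries, 3 of Tyrobp-/-;Inpp5d+/-;NLGF and 3 of Inpp5d+/-;NLGF, entered the fit as a source of information on the spread and serve below as the same loss on a background with 1 copy of Inpp5d. The labels used here do not give the part of Tyrobp that was deleted, the number of mice behind a library, or their sex and litter. With 2 libraries in the Tyrobp-/-;NLGF group, a spread within that group rests on a single difference.

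Tyrobp encodes DAP12, a transmembrane adaptor without a ligand-binding part of its own. DAP12 pairs with TREM2 and with other activating receptors of myeloid cells, and its cytoplasmic tyrosines recruit the kinase SYK once the receptor is engaged. Inpp5d encodes SHIP1, a phosphatase that removes the lipid product of PI3 kinase downstream of such receptors. Around amyloid plaques, microglia take on the disease-associated (DAM) state, in which genes of lipid handling, lysosomes and secreted factors are raised and homeostatic genes lowered, and the later stage of this state is known to need TREM2.

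Values are CPM, read counts scaled to the library's size. Fold changes are given on the log2 scale as Tyrobp-/-;NLGF over NLGF with their standard error (SE). A gene is called when its Benjamini-Hochberg adjusted p from edgeR's quasi-likelihood test over all 20390 genes tested is below 0.05. The 5 libraries held 29490567 to 66637052 counts. The targeted gene itself, Tyrobp (ENSMUSG00000030579.10, GRCm38 chromosome 7, 30413760 to 30417585), had 8.94 and 7.01 CPM in the Tyrobp nulls, against 1999, 2022 and 2560.1 CPM in NLGF (log2 fold change -8.10, SE 0.48, adjusted p = 0.000147), so both libraries matched their label. Inpp5d, of which both groups carry both copies, was at 449 and 447 CPM in the Tyrobp nulls, against 436, 205 and 313 CPM in NLGF (adjusted p = 0.53). Trem2 was at 2016 and 2052 CPM in the Tyrobp nulls, against 2004, 2510.1 and 2688 CPM in NLGF (adjusted p = 0.506). App was at 96.3 and 100.1 CPM in the Tyrobp nulls, against 95.8, 77.4 and 77.6 CPM in NLGF (adjusted p = 0.71). The microglial marker Csf1r was high in all 5 libraries, at 4844 and 4747 CPM in the Tyrobp nulls and 6368, 4245 and 5722 CPM in NLGF. Neutrophil markers separated the groups as well. S100a8 was at 6925 and 1604 CPM in the Tyrobp nulls, against 0.24, 80.9 and 37.7 CPM in NLGF, and the summed level of 26 neutrophil markers was 21970 and 5329 CPM in Tyrobp-/-;NLGF, against 372.5, 537.5 and 454.5 CPM in NLGF. The 30 monocyte and dendritic cell markers summed to 3643 and 1890 CPM in Tyrobp-/-;NLGF and to 961.2, 922.9 and 1121 CPM in NLGF. The T cell marker Cd3e and the endothelial marker Cldn5 were at 0 in both Tyrobp-/-;NLGF libraries, but other members of their lists were not. The 26 T, B and NK cell markers summed to 539.1 and 525.9 CPM in Tyrobp-/-;NLGF, against 486.4, 517.1 and 582.6 CPM in NLGF. The 15 endothelium and mural cell markers summed to 48.69 and 34.91 CPM in Tyrobp-/-;NLGF, against 33.47, 27.3 and 29.84 CPM in NLGF. Border-associated macrophage markers had summed levels of 825.6 and 912.0 CPM in Tyrobp-/-;NLGF and of 881.7, 786.5 and 873.7 CPM in NLGF. Numbers in the sample titles separate Tyrobp-/- from other libraries, so that handling or litter cannot be told apart from the genotype.

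Of the 20390 genes tested, 176 were called (0.863%), 52 of them higher (0.255%) and 124 lower (0.608%) in Tyrobp-/-;NLGF. The fold change was positive for 10221 and negative for 10040 of all genes, and 2463 had an unadjusted p below 0.05. These values are the background for the counts of each gene list below. The libraries of both groups did not overlap for any called gene, which was also so for 29.6% of all genes tested. The median log2 fold change was 1.33 over the higher and -1.38 over the lower genes, and 35 higher and 88 lower genes differed by more than 2-fold. A difference of more than 8-fold was found for 11 higher and 29 lower genes. Calls were concentrated among genes with many reads. Of the 1891 genes with a mean above 100 CPM in either group 94 were called (4.97%), against 62 of 4958 between 20 and 100 CPM (1.25%), 13 of 4069 between 5 and 20 CPM (0.319%), 7 of 3860 between 1 and 5 CPM (0.181%) and none of 5612 below 1 CPM. In simulated data for this comparison, 17% of 2-fold and 63% of 4-fold changes were called among genes of at least 5 CPM, so many changes of 2-fold were not detectable with these libraries.

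The called genes made up a sizeable share of the RNA. The 123 lower genes other than Tyrobp summed to 48250 and 49950 CPM in Tyrobp-/-;NLGF, against 81080, 79800 and 83440 CPM in NLGF. The 52 higher genes summed to 45430 and 50140 CPM in Tyrobp-/-;NLGF, against 27220, 25820 and 29520 CPM in NLGF. These genes were chosen by their difference between the same libraries, so that the sums had to differ. Much of the lower sum came from Ctsd and the overlapping Gm49369, with means of 26382 and 13376 CPM in NLGF. Much of the higher sum came from Cst3, at 23643 and 26556 CPM in the Tyrobp nulls. In sorted cells sequenced as bulk, fewer cells of a state and less RNA of a gene per cell cannot be told apart. The total of 176 was 31 without Tyrobp-/-;NLGF replicate 1 and 36 without replicate 2, where the lone library is assumed to vary like the other groups, and 88 and 108 without NLGF replicate 2 and 3. Of the 151 called genes named by the rule, 18 lower and 2 higher genes passed in each of the 5 fits that leave out 1 library of either group. These were Ank, Aplp2, Baiap2l2, Bhlhe40, Cadm1, Ccl6, Csf1, Cst7, Ctsl, Fabp5, Gm42793, Hif1a, Igf1, Mamdc2, Serpine2, Spp1, St8sia6 and Tyrobp among the lower genes, and Socs3 and Gm19719 among the higher. With a covariate for neutrophil markers 10 genes were called, and 27 without the 2 libraries richest in S100a8, of which Tyrobp-/-;NLGF replicate 1 is one. All 176 genes kept their sign in both of these fits. Without the 2 libraries it could hardly be otherwise, since the groups did not overlap for any called gene. The median log2 fold change of the 52 higher and 124 lower genes was 1.19 and -1.34 with the covariate and 1.39 and -1.37 without the 2 libraries, against 1.33 and -1.38 over all libraries. Their median SE was 0.355 and 0.359 with the covariate and 0.226 and 0.275 without the 2 libraries, against 0.196 and 0.202 over all libraries. Single genes moved by more or less than the medians. Over 23 alternative settings the log2 fold change ranged from 0.48 to 4.85 for S100a11, 0.95 to 4.59 for Emb and 2.16 to 8.67 for Hp. The range was 2.17 to 2.58 for Socs3 and 0.62 to 0.70 for Tmem119.

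**Figure D1:**
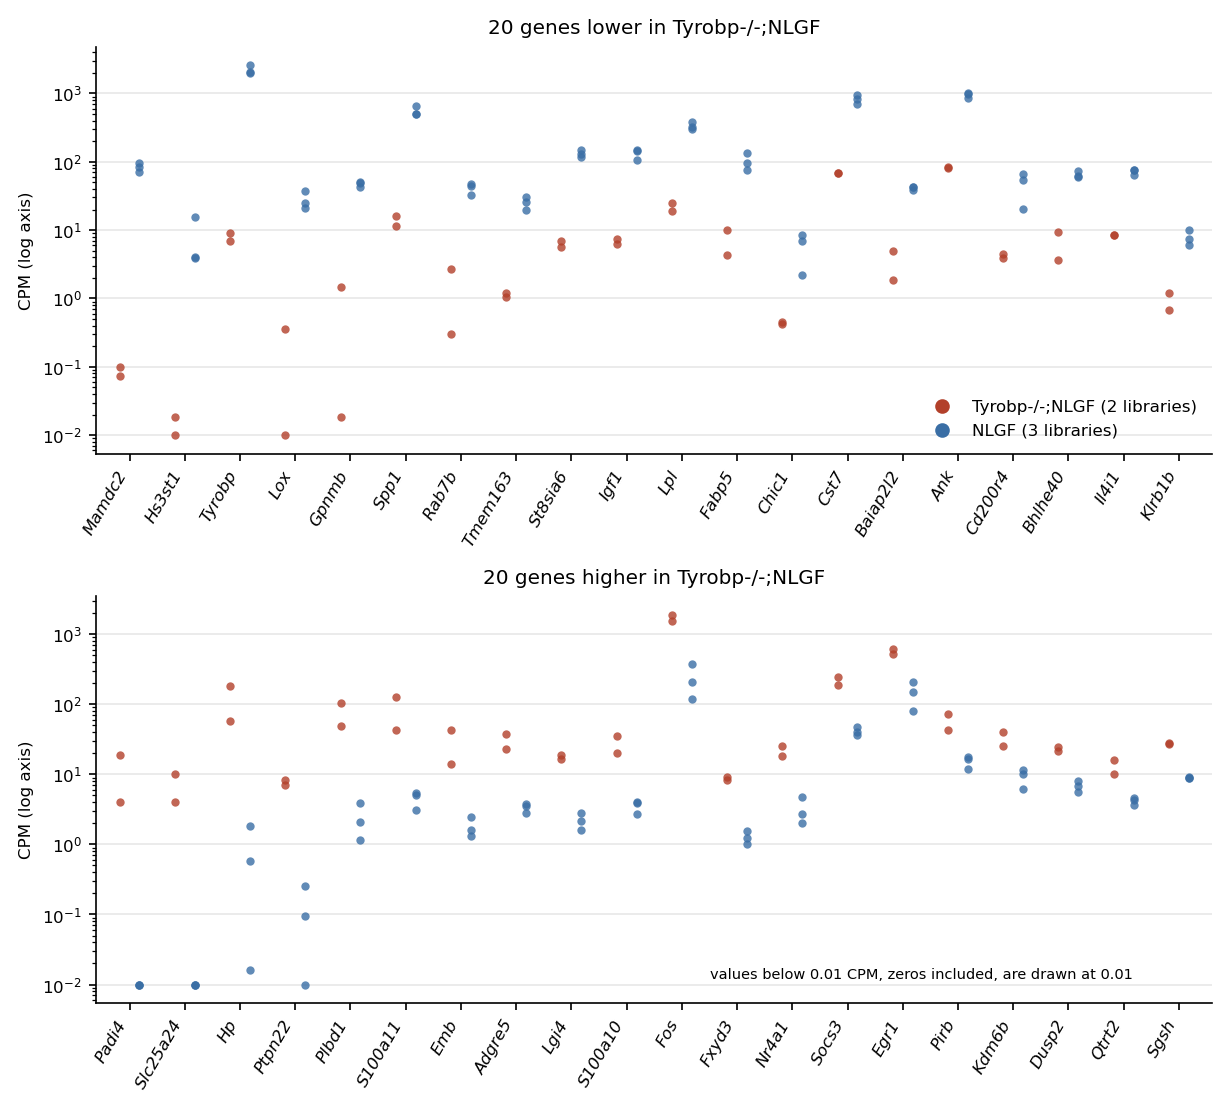
CPM in each library on a log axis for the 20 lower (top) and 20 higher (bottom) called genes with the largest fold changes and at least 5 CPM in a group, with Tyrobp-/-;NLGF (2 libraries) left of NLGF (3 libraries). No overlap between the groups was a condition for the choice of these genes. Among the higher genes Padi4, Hp, Emb, S100a11 and Slc25a24 differ most between both Tyrobp-/-;NLGF libraries.

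Secreted proteins and growth factors were among the transcripts that fell furthest. Spp1 (chromosome 5, 104435118 to 104441050), which encodes the matrix protein osteopontin, was at 11.5 and 15.9 CPM in the Tyrobp nulls, against 646, 502 and 499 CPM in NLGF (log2 fold change -5.33, SE 0.29, adjusted p = 0.000122). Mamdc2 (chromosome 19, 23302609 to 23448442), whose protein carries MAM domains, was at 0.0996 and 0.074 CPM in the Tyrobp nulls, against 96.6, 83.7 and 70.2 CPM in NLGF (log2 fold change -9.88, SE 0.63, adjusted p = 0.000165). Both Tyrobp-/-;NLGF libraries were far below every NLGF library for these transcripts. Lox, the lysyl oxidase that cross-links collagen and elastin, was at 0.358 and 0 CPM in the Tyrobp nulls, against 25.3, 21.3 and 37.5 CPM in NLGF (log2 fold change -7.30, SE 1.27, adjusted p = 0.0338). Gpnmb, a glycoprotein of late endosomes and the cell surface, was at 1.45 and 0.0185 CPM in the Tyrobp nulls, against 49.4, 50.6 and 43.1 CPM in NLGF (log2 fold change -6.03, SE 0.97, adjusted p = 0.0225), with replicate 2 below replicate 1 in Tyrobp-/-;NLGF. Igf1, an insulin-like growth factor, was at 6.25 and 7.31 CPM in the Tyrobp nulls, against 144, 147 and 107 CPM in NLGF (log2 fold change -4.29, SE 0.42, adjusted p = 0.00199). Lox and Gpnmb were nearly absent from the Tyrobp nulls, while Igf1 kept a low level in both. Csf1, a ligand of the receptor that microglia need to survive, was at 19.2 and 20.4 CPM in the Tyrobp nulls, against 146, 90.2 and 99.5 CPM in NLGF (log2 fold change -2.50, SE 0.25, adjusted p = 0.00199), while its receptor Csf1r did not pass (adjusted p = 0.72). Of 28 matrix and secreted genes tested, 5 fell, namely Spp1, Mamdc2, Lox, Gpnmb and the annexin gene Anxa5, and Sparc rose. That is 21.4% called, beside 0.863% of all genes tested, and the median over the list was 0.30. Of 21 growth factor genes, Igf1 and Csf1 fell and none rose. Fgf13, outside that list, was at 11.6 and 15.6 CPM in the Tyrobp nulls, against 53.5, 68.2 and 61.9 CPM in NLGF (log2 fold change -2.17, SE 0.25, adjusted p = 0.00528). Of 20 chemokine genes only Ccl6 passed, at 759 and 732 CPM in the Tyrobp nulls, against 2346, 2376 and 2621 CPM in NLGF (log2 fold change -1.71, SE 0.13, adjusted p = 0.000379). With either Tyrobp-/-;NLGF library left out, Spp1, Mamdc2 and Gpnmb were the matrix and secreted genes that passed, and without NLGF replicate 2 Spp1 and Mamdc2.

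Of 30 genes listed for the later DAM stage, 19 fell and none rose (63.3%, beside 0.608% of all genes tested that were called lower), and all 30 had a negative fold change, with a median of -2.55 beside 0.00221 over all genes. The list was drawn up with earlier results of these data known. Besides Spp1, Mamdc2, Ccl6, Gpnmb, Igf1 and Csf1, the called members included the pyrophosphate transporter gene Ank, at 80.2 and 83.1 CPM in the Tyrobp nulls, against 1019, 844 and 963 CPM in NLGF (log2 fold change -3.53, SE 0.23, adjusted p = 0.000165). Cst7, which encodes the cathepsin inhibitor cystatin F, was at 67.6 and 69.2 CPM in the Tyrobp nulls, against 829, 706 and 933 CPM in NLGF (log2 fold change -3.59, SE 0.31, adjusted p = 0.000833). The libraries of each group lay close together for these genes, and the groups lay more than 10-fold apart. Itgax, the integrin subunit CD11c, was at 16.4 and 24.1 CPM in the Tyrobp nulls, against 173, 143 and 175 CPM in NLGF and was the member nearest to the threshold (log2 fold change -3.02, SE 0.58, adjusted p = 0.0498). Clec7a, the beta-glucan receptor Dectin-1, was at 183 and 126 CPM in the Tyrobp nulls, against 596, 986 and 1245 CPM in NLGF (log2 fold change -2.61, SE 0.37, adjusted p = 0.0127). The NLGF libraries spread more for Clec7a than for Itgax. Of the 11 members that did not pass, Axl, a receptor kinase that binds dying cells, was at 66.1 and 28.6 CPM in the Tyrobp nulls, against 640.2, 460.0 and 481 CPM in NLGF (adjusted p = 0.0771). Of the 19, 14 passed with either Tyrobp-/-;NLGF library left out, 16 without NLGF replicate 1 or 2 and 17 without NLGF replicate 3. With the neutrophil covariate 4 of the 19 passed, 12 without the 2 libraries richest in S100a8, and 13 when only the 5 libraries of both groups were fitted. Of 10 genes listed for the early DAM stage, Tyrobp, Ctsb and Ctsd fell and none rose, and only Tyrobp passed with either Tyrobp-/-;NLGF library left out.

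Lysosomal proteases and membrane proteins were lower by smaller factors. Of 14 cathepsin genes, Ctsb, Ctsd and Ctsl fell and none rose (21.4% called, beside 0.863% of all genes tested). Ctsl, a cysteine protease, was at 1971 and 2060.1 CPM in the Tyrobp nulls, against 3643, 3386 and 3795 CPM in NLGF (log2 fold change -0.84, SE 0.07, adjusted p = 0.000493). Ctsd, an aspartic protease, was at 19117 and 20846 CPM in the Tyrobp nulls, against 25921, 26206 and 27018 CPM in NLGF (log2 fold change -0.40, SE 0.07, adjusted p = 0.0343), and reads of the overlapping gene Gm49369 cannot be told apart from it. For both genes every Tyrobp null lay below every NLGF library. Ctsz, a carboxypeptidase, was at 2017 and 1997 CPM in the Tyrobp nulls, against 3156, 2867 and 3059 CPM in NLGF without passing (adjusted p = 0.0566). Ctse was at 1.27 and 1.81 CPM in the Tyrobp nulls, against 21.7, 17.7 and 7.62 CPM in NLGF (adjusted p = 0.103). Of 36 other lysosomal genes, Cd63 and Gusb fell and Sgsh rose (8.33% called). A negative fold change was found for 29 of the 36, beside 10040 of all 20390 genes. Cd63, a tetraspanin of late endosomes, was at 998 and 928 CPM in the Tyrobp nulls, against 1648, 1854 and 1969 CPM in NLGF (log2 fold change -0.92, SE 0.10, adjusted p = 0.00423). Gusb, the lysosomal beta-glucuronidase, was at 492 and 517 CPM in the Tyrobp nulls, against 907, 906 and 766 CPM in NLGF. Sgsh, the sulfamidase that takes part in heparan sulfate breakdown, went the other way, at 28.3 and 26.7 CPM in the Tyrobp nulls, against 8.82, 8.84 and 9.05 CPM in NLGF (log2 fold change 1.63, SE 0.26, adjusted p = 0.0225). None of the 17 genes listed for the proton pump of lysosomes was called by edgeR or limma-voom, 6 had an unadjusted p below 0.05 and DESeq2 called 2, although 15 of 17 had a negative fold change (median -0.36). Tcirg1, a pump subunit gene outside that list, was at 81.2 and 65.9 CPM in the Tyrobp nulls, against 128, 136 and 149 CPM in NLGF (log2 fold change -0.90, SE 0.12, adjusted p = 0.012). Slc11a1, the metal transporter NRAMP1 of phagosomes, was at 599 and 563 CPM in the Tyrobp nulls, against 993, 992 and 1065 CPM in NLGF (log2 fold change -0.81, SE 0.12, adjusted p = 0.0145). Rab7b, a small GTPase of late endosomes, was at 0.299 and 2.74 CPM in the Tyrobp nulls, against 46.5, 44.2 and 33.1 CPM in NLGF (log2 fold change -4.75, SE 0.86, adjusted p = 0.0402). Of these calls only Ctsl passed with either Tyrobp-/-;NLGF library left out.

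Among protease inhibitors the cystatin genes diverged. Cst7 fell as given above, while Cst3, which encodes the secreted cystatin C, rose, at 23643 and 26556 CPM in the Tyrobp nulls, against 15024, 14256 and 17611 CPM in NLGF (log2 fold change 0.68, SE 0.10, adjusted p = 0.0156). Serpine2, an inhibitor of serine proteases such as thrombin, was at 1073 and 1089 CPM in the Tyrobp nulls, against 2919, 2646 and 2391 CPM in NLGF (log2 fold change -1.29, SE 0.10, adjusted p = 0.000379). Both groups were well apart for these genes, and Cst7 and Serpine2, but not Cst3, passed with either Tyrobp-/-;NLGF library left out.

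Genes of lipid uptake and of sterol synthesis fell in part. Lpl, the lipase that releases fatty acids from lipoproteins, was at 25.2 and 19.3 CPM in the Tyrobp nulls, against 384, 299 and 323 CPM in NLGF (log2 fold change -3.91, SE 0.46, adjusted p = 0.00539). Fabp5, a cytoplasmic carrier of fatty acids, was at 10 and 4.29 CPM in the Tyrobp nulls, against 77, 135 and 95.9 CPM in NLGF (log2 fold change -3.85, SE 0.40, adjusted p = 0.00239). Soat1, which esterifies cholesterol for storage, was at 171 and 142 CPM in the Tyrobp nulls, against 308, 259.9 and 250.2 CPM in NLGF (log2 fold change -0.80, SE 0.13, adjusted p = 0.0218). Nceh1, an enzyme of the opposite reaction that is not in the list, was at 67.6 and 45.7 CPM in the Tyrobp nulls, against 182, 172 and 159 CPM in NLGF (log2 fold change -1.59, SE 0.19, adjusted p = 0.00539). Transcripts of storage and of release were thus both lower. Scarb1, a receptor of high-density lipoprotein, was at 71.8 and 61 CPM in the Tyrobp nulls, against 170.3, 112 and 128 CPM in NLGF (log2 fold change -1.04, SE 0.18, adjusted p = 0.036). These 4 listed genes were the only calls among 32 genes of lipid uptake, storage and efflux, whose median was 0.06. Of 14 genes of fatty acid synthesis only Scd2, a desaturase, was called, at 63.9 and 66.3 CPM in the Tyrobp nulls, against 217, 180.5 and 165 CPM in NLGF (log2 fold change -1.53, SE 0.20, adjusted p = 0.00926). Of 26 genes of cholesterol synthesis, Hmgcs1 and the regulator gene Srebf2 fell (7.69% called, beside 0.863% of all genes tested). A negative fold change was found for 21 of the 26, beside 10040 of all 20390 genes, and the median was -0.74. Sqle, squalene epoxidase, was at 3.98 and 6.16 CPM in the Tyrobp nulls, against 20.7, 16.8 and 22.5 CPM in NLGF without passing (adjusted p = 0.115). Dhcr7, a late enzyme of the pathway, was at 37.6 and 29.1 CPM in the Tyrobp nulls, against 65.8, 48.8 and 60.3 CPM in NLGF (adjusted p = 0.0823). Hsd17b12 and Hacd2, enzymes of fatty acid elongation outside the lists, also fell, with log2 fold changes of -0.73 (SE 0.10) and -1.17 (SE 0.16). With either Tyrobp-/-;NLGF library left out, Fabp5 alone of the 4 lipid uptake genes passed, and none of the sterol and fatty acid synthesis genes.

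Glucose uptake, hypoxia signalling and amino acid genes held 1 or 2 calls in each list, all lower. The called shares were 9.09%, 12.5% and 5%, beside 0.863% of all genes tested. Hif1a, the oxygen-regulated subunit of hypoxia-inducible factor 1, was at 140.0 and 152 CPM in the Tyrobp nulls, against 504, 468 and 446 CPM in NLGF (log2 fold change -1.69, SE 0.17, adjusted p = 0.00199), and the overlapping genes Gm15283 and Snapc1l were called in the same direction, so that their reads cannot be told apart. Egln3, an oxygen-dependent prolyl hydroxylase whose gene is a target of that factor, was at 6.15 and 8.31 CPM in the Tyrobp nulls, against 31.3, 35.4 and 29.9 CPM in NLGF (log2 fold change -2.16, SE 0.35, adjusted p = 0.0226). Both were lower in each Tyrobp null than in any NLGF library. Slc2a1, the glucose transporter GLUT1, was at 66.2 and 84.9 CPM in the Tyrobp nulls, against 169.7, 161 and 178 CPM in NLGF (log2 fold change -1.17, SE 0.17, adjusted p = 0.0159). Pfkl, a subunit of phosphofructokinase, was at 118 and 119 CPM in the Tyrobp nulls, against 193, 175 and 222 CPM in NLGF (log2 fold change -0.74, SE 0.13, adjusted p = 0.0407). These were the 2 calls among 22 genes of glycolysis and glucose uptake, of which 16 had a negative fold change. Psat1, an enzyme of serine synthesis, was at 123 and 114 CPM in the Tyrobp nulls, against 246, 295 and 265 CPM in NLGF (log2 fold change -1.18, SE 0.12, adjusted p = 0.00239), and it was the only call among 20 genes of the integrated stress and amino acid response. Il4i1, a secreted amino acid oxidase, was at 8.54 and 8.49 CPM in the Tyrobp nulls, against 64.3, 76.9 and 75 CPM in NLGF (log2 fold change -3.08, SE 0.37, adjusted p = 0.0064), and it overlaps Tbc1d17, which was called in the same direction. No gene among 36 subunits of oxidative phosphorylation and 49 cytosolic ribosomal proteins was called by edgeR, with 7 and 8 at an unadjusted p below 0.05, 3 and 3 called by DESeq2 and 0 and 1 by limma-voom. All 49 ribosomal protein genes had a negative fold change, beside 10040 of all 20390 genes tested, with a median of -0.22. Cox6a2, a subunit form of cytochrome oxidase known from heart and muscle, was at 11.8 and 16.2 CPM in the Tyrobp nulls, against 80.2, 94.8 and 64.2 CPM in NLGF (log2 fold change -2.51, SE 0.30, adjusted p = 0.0064).

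Surface receptors moved in both directions. Siglecf, a sialic acid receptor with an inhibitory tail, was at 43.9 and 40.6 CPM in the Tyrobp nulls, against 119, 108 and 163 CPM in NLGF (log2 fold change -1.62, SE 0.21, adjusted p = 0.00885). Cd200r4, an activating relative of the CD200 receptor known to pair with DAP12, was at 4.54 and 3.92 CPM in the Tyrobp nulls, against 20.6, 54.9 and 66.8 CPM in NLGF (log2 fold change -3.49, SE 0.54, adjusted p = 0.0187), and NLGF replicate 1 was the lowest of its group. Pdcd1, the inhibitory receptor PD-1, was at 28.5 and 21.7 CPM in the Tyrobp nulls, against 147, 171 and 211 CPM in NLGF (log2 fold change -2.81, SE 0.39, adjusted p = 0.0116). The inhibitory receptors Pirb and Siglece were higher instead. Pirb was at 71.6 and 42.4 CPM in the Tyrobp nulls, against 11.9, 17.6 and 16.6 CPM in NLGF (log2 fold change 1.89, SE 0.35, adjusted p = 0.0407). Siglece was at 104 and 84.6 CPM in the Tyrobp nulls, against 49.1, 41.4 and 49.2 CPM in NLGF (log2 fold change 1.01, SE 0.17, adjusted p = 0.0229). Lilra6, an activating member of the paired receptor family, was at 4.02 and 2.02 CPM in the Tyrobp nulls, against 0.144, 0.1 and 0.0796 CPM in NLGF (log2 fold change 4.77, SE 0.75, adjusted p = 0.0203). Of 33 DAP12-coupled and paired receptor genes, 3 rose and 2 fell, with a median of 1.47, and none of these 5 calls remained with either Tyrobp-/-;NLGF library left out. Pirb and Lilra6 were 1.69 and 1.99 times as high in Tyrobp-/-;NLGF replicate 1 as in replicate 2, and replicate 1 also held more neutrophil RNA. Of the 5 calls only Cd200r4 passed with the neutrophil covariate. That fit kept only 10 of all 176 calls, and the median SE of the higher genes was 0.355 in it, against 0.196 without the covariate. The part of neutrophil RNA in these higher receptor transcripts was not tested further. Members of these families resemble each other, so that reads may be divided between them. Klrb1b, a lectin-like receptor, was at 0.677 and 1.22 CPM in the Tyrobp nulls, against 9.91, 7.51 and 5.95 CPM in NLGF (log2 fold change -3.03, SE 0.49, adjusted p = 0.0225). Clec4a2, the inhibitory lectin DCIR, was at 101 and 59.4 CPM in the Tyrobp nulls, against 33.2, 33.6 and 42.4 CPM in NLGF (log2 fold change 1.14, SE 0.21, adjusted p = 0.041).

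Receptors for small ligands were among the lower genes of no pathway list. Hcar2, a receptor of niacin and of the ketone body beta-hydroxybutyrate, was at 28.5 and 18.9 CPM in the Tyrobp nulls, against 103, 132 and 134 CPM in NLGF (log2 fold change -2.38, SE 0.37, adjusted p = 0.0197). Ramp1, the partner that makes a receptor for the neuropeptide CGRP, was at 151 and 122 CPM in the Tyrobp nulls, against 319, 441 and 414 CPM in NLGF (log2 fold change -1.52, SE 0.22, adjusted p = 0.0139). Gpr65, a receptor that senses protons, was at 23.9 and 18.8 CPM in the Tyrobp nulls, against 53.2, 56.3 and 53 CPM in NLGF (log2 fold change -1.35, SE 0.20, adjusted p = 0.0156), with the overlapping gene Gm47566 called in the same direction. The groups did not overlap for any of these receptors. P2rx4, an ATP-gated channel, was at 129.6 and 111 CPM in the Tyrobp nulls, against 172, 200.4 and 213 CPM in NLGF (log2 fold change -0.70, SE 0.13, adjusted p = 0.0475), and was the only lower call among 19 purine receptor and ectoenzyme genes. Pnp, which breaks down purine nucleosides, was the only higher one, at 147 and 157 CPM in the Tyrobp nulls, against 103, 106 and 90.9 CPM in NLGF (log2 fold change 0.61, SE 0.11, adjusted p = 0.0457). P2rx4 and Pnp thus moved in opposite directions. Cd34, a sialomucin of progenitor and endothelial cells, was at 334 and 300.2 CPM in the Tyrobp nulls, against 980.2, 990.2 and 1049 CPM in NLGF (log2 fold change -1.67, SE 0.21, adjusted p = 0.00693), with the overlapping gene Gm16897 called in the same direction. St8sia6, a sialyltransferase, was at 6.99 and 5.66 CPM in the Tyrobp nulls, against 149, 117 and 128 CPM in NLGF (log2 fold change -4.38, SE 0.38, adjusted p = 0.000833). Tmem163, a zinc-binding membrane protein gene, was at 1.04 and 1.22 CPM in the Tyrobp nulls, against 26, 19.4 and 30 CPM in NLGF (log2 fold change -4.47, SE 0.58, adjusted p = 0.00885). Cadm1, a cell adhesion molecule, was at 242 and 248 CPM in the Tyrobp nulls, against 573, 537 and 506 CPM in NLGF (log2 fold change -1.14, SE 0.09, adjusted p = 0.000379).

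The pathway directly behind DAP12 held no call. Of 34 genes of SYK, PI3 kinase and phospholipase signalling none passed in edgeR, where 0.863% of all genes tested passed. A list of this size can thus lack a call without differing from the rest. Of the 34, 9 had an unadjusted p below 0.05, beside 2463 of all 20390 genes. DESeq2 called 5 higher and limma-voom 1, and the median was 0.16. Syk was at 59.5 and 65.3 CPM in the Tyrobp nulls, against 38.6, 18 and 37.5 CPM in NLGF (adjusted p = 0.157). Dok3, an adaptor that dampens such signals, was at 54.6 and 47.9 CPM in the Tyrobp nulls, against 12.1, 25.5 and 19.3 CPM in NLGF (adjusted p = 0.0522). Of 24 phosphoinositide and tyrosine phosphatase genes 1 was called. Ptpn22, a phosphatase that acts on SRC and SYK family kinases, was at 8.32 and 7.03 CPM in the Tyrobp nulls, against 0.0962, 0 and 0.255 CPM in NLGF (log2 fold change 5.88, SE 0.97, adjusted p = 0.0238), and it did not pass with either Tyrobp-/-;NLGF library left out. Outside these lists, Plek, the protein kinase C substrate pleckstrin, was at 727 and 661 CPM in the Tyrobp nulls, against 1193, 1407 and 1516 CPM in NLGF (log2 fold change -0.98, SE 0.13, adjusted p = 0.00989). Dgkz, a kinase that removes diacylglycerol, was at 79.5 and 84.2 CPM in the Tyrobp nulls, against 132, 141 and 129 CPM in NLGF (log2 fold change -0.71, SE 0.13, adjusted p = 0.0389). Both were lower in each Tyrobp null. Gng12, a G protein subunit, was at 60.5 and 59.6 CPM in the Tyrobp nulls, against 181, 154 and 126 CPM in NLGF (log2 fold change -1.36, SE 0.25, adjusted p = 0.0407). Capg, which encodes an actin-capping protein, was at 99 and 62.8 CPM in the Tyrobp nulls, against 196, 269 and 193 CPM in NLGF (log2 fold change -1.44, SE 0.27, adjusted p = 0.0446).

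Transcripts tied to amyloid itself held 2 calls. Of 16 genes of APP processing and amyloid breakdown, Aplp2 and Ncstn fell and none rose. Aplp2, a close relative of App, was at 124.1 and 98.2 CPM in the Tyrobp nulls, against 425, 306 and 346 CPM in NLGF (log2 fold change -1.69, SE 0.16, adjusted p = 0.00191). Ncstn, the nicastrin subunit of gamma-secretase, was at 309 and 286 CPM in the Tyrobp nulls, against 539, 455 and 452 CPM in NLGF (log2 fold change -0.70, SE 0.11, adjusted p = 0.0213). Adam10, the main alpha-secretase of neurons, was at 276 and 232.3 CPM in the Tyrobp nulls, against 353, 324 and 331 CPM in NLGF without passing (adjusted p = 0.169). C1qb, a subunit of the complement component that binds plaques, was at 5804 and 6620.0 CPM in the Tyrobp nulls, against 4881, 5746 and 5943 CPM in NLGF (adjusted p = 0.62). Aplp2, but not Ncstn, passed with either Tyrobp-/-;NLGF library left out.

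**Figure D2:**
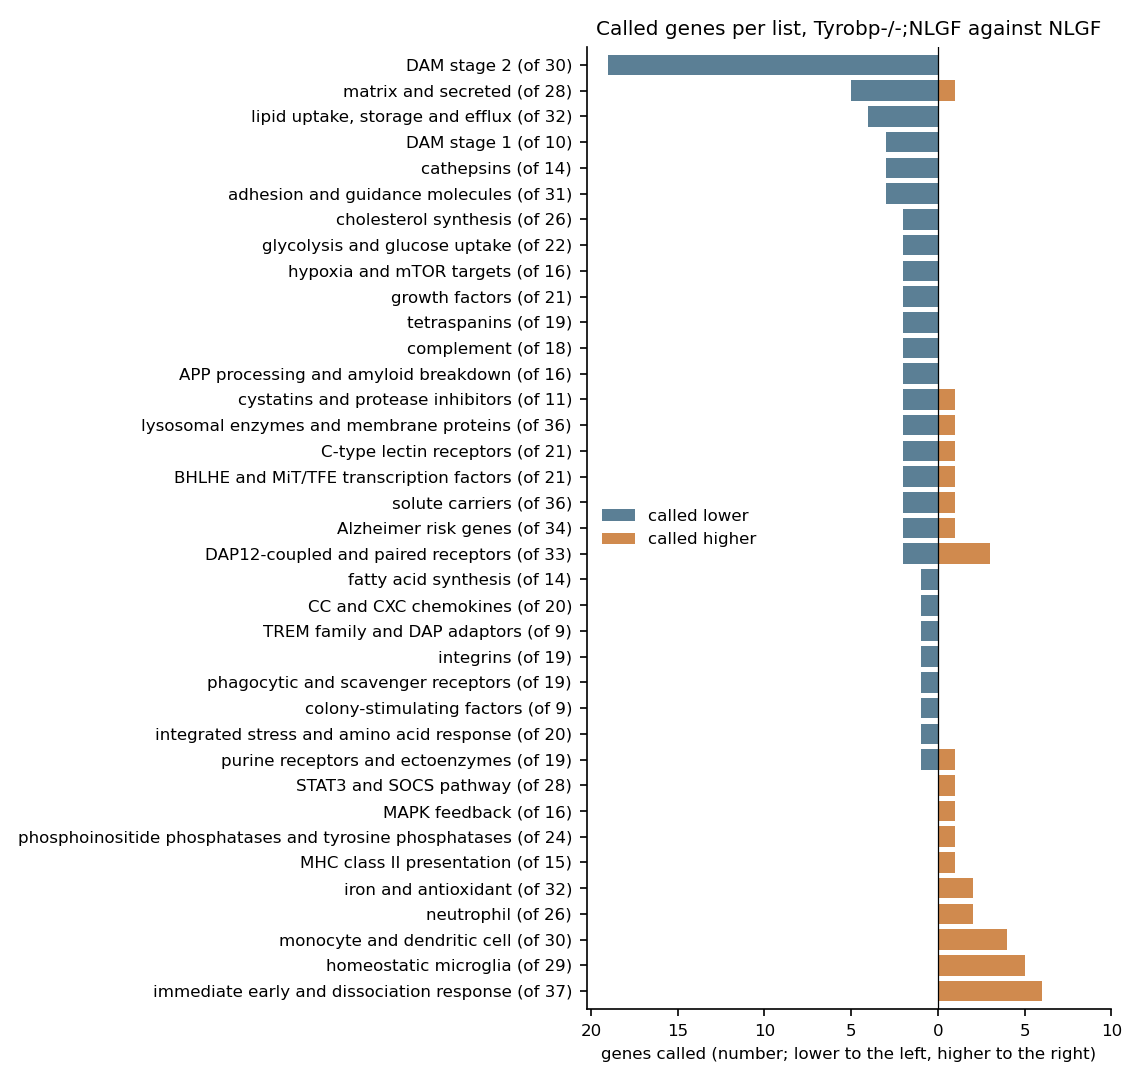
Number of called genes in each gene list with at least 1 call, with lower genes to the left and higher genes to the right of 0 and the number of genes tested in brackets. The later DAM stage has 19 lower calls of 30, and the immediate early list has 6 higher calls of 37.

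Homeostatic genes were higher in part. Of 29 listed, 5 rose (Tmem119, Cst3, Ltc4s, Sparc and Crybb1) and none fell, with a median of 0.20. That is 17.2% called, beside 0.863% of all genes tested. Tmem119, a surface protein by which microglia are recognised, was at 5629 and 5575 CPM in the Tyrobp nulls, against 3454, 3472 and 3827 CPM in NLGF (log2 fold change 0.64, SE 0.08, adjusted p = 0.00885). Crybb1, a crystallin gene of resting microglia, was at 236 and 304 CPM in the Tyrobp nulls, against 83.9, 109.9 and 140.3 CPM in NLGF (log2 fold change 1.28, SE 0.21, adjusted p = 0.0225). Ltc4s, the synthase of leukotriene C4, was at 184 and 212 CPM in the Tyrobp nulls, against 123, 112 and 117 CPM in NLGF (log2 fold change 0.75, SE 0.11, adjusted p = 0.0184). Alox5ap, which presents arachidonic acid to the leukotriene pathway, was at 304 and 293 CPM in the Tyrobp nulls, against 132, 161 and 167 CPM in NLGF (log2 fold change 0.96, SE 0.14, adjusted p = 0.0134). Both leukotriene genes were higher in each Tyrobp-/-;NLGF library than in any NLGF library, though each overlaps a gene called in the same direction, Gm26542 and Gm19719. P2ry12, a purine receptor that homeostatic microglia use to sense injury, was at 6589 and 6299 CPM in the Tyrobp nulls, against 5640.4, 6011 and 7399 CPM in NLGF (adjusted p = 0.984). Cx3cr1 was at 5093 and 4911 CPM in the Tyrobp nulls, against 4741, 3841 and 3854 CPM in NLGF (adjusted p = 0.273). The 5 calls became 0 with either Tyrobp-/-;NLGF library left out and 1 without NLGF replicate 2.

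The list with most higher calls was that of immediate early genes. Of 37 genes of the immediate early and dissociation response, 6 rose and none fell (16.2% called, beside 0.863% of all genes tested). A positive fold change was found for 32 of the 37, beside 10221 of all 20390 genes, and the median was 0.80. Fos, a subunit of the AP-1 factor, was at 1528 and 1885 CPM in the Tyrobp nulls, against 371, 206 and 117 CPM in NLGF (log2 fold change 2.88, SE 0.49, adjusted p = 0.0298). Egr1, an early growth response factor, was at 522 and 609 CPM in the Tyrobp nulls, against 208, 149 and 79.8 CPM in NLGF (log2 fold change 1.96, SE 0.36, adjusted p = 0.042). The groups did not overlap, but the NLGF libraries themselves spread widely for both genes, with replicate 1 highest and replicate 3 lowest, and the summed level of the list was 10380 and 11970 CPM in Tyrobp-/-;NLGF, against 7329, 4550 and 3276 CPM in NLGF. Genes of this list are also known to be induced while tissue is dissociated, and the part of handling in these values was not tested. Junb, another AP-1 subunit, was at 480.0 and 571 CPM in the Tyrobp nulls, against 290.2, 306 and 244 CPM in NLGF. Id2, an inhibitor of helix-loop-helix factors, was at 226 and 221 CPM in the Tyrobp nulls, against 127, 118 and 137 CPM in NLGF. Nr4a1, an orphan nuclear receptor, was at 18.2 and 25.1 CPM in the Tyrobp nulls, against 4.82, 2.74 and 2.04 CPM in NLGF. Dusp2, a phosphatase that switches off MAP kinases, was at 24.7 and 21.6 CPM in the Tyrobp nulls, against 8.01, 5.51 and 6.79 CPM in NLGF. These 4 genes passed (adjusted p = 0.0225, 0.0156, 0.0484 and 0.0221). Dusp1, of the same family, was at 2051 and 2429.6 CPM in the Tyrobp nulls, against 811, 431 and 233.2 CPM in NLGF without passing (adjusted p = 0.0687). Of these 6 calls none remained without Tyrobp-/-;NLGF replicate 1 or 2 or NLGF replicate 2, and 1 without NLGF replicate 3. Socs3, the feedback inhibitor of STAT3 signalling, was at 188 and 248 CPM in the Tyrobp nulls, against 47.9, 40.5 and 36.6 CPM in NLGF (log2 fold change 2.39, SE 0.23, adjusted p = 0.00199), and it passed with any 1 library of either group left out. Kdm6b, which removes methyl groups from histone H3, was at 25 and 40.3 CPM in the Tyrobp nulls, against 10.2, 11.4 and 6.27 CPM in NLGF (log2 fold change 1.81, SE 0.28, adjusted p = 0.0189).

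Other higher genes came from several classes. Slc40a1, the iron exporter ferroportin, was at 485 and 485 CPM in the Tyrobp nulls, against 257, 223 and 221 CPM in NLGF (log2 fold change 1.05, SE 0.15, adjusted p = 0.015). Ncf4, a cytosolic subunit of the NADPH oxidase, was at 105 and 96.8 CPM in the Tyrobp nulls, against 49.2, 56.7 and 61.8 CPM in NLGF (log2 fold change 0.85, SE 0.16, adjusted p = 0.043). Both were among 32 genes of iron and antioxidant function, of which no other was called. Malat1, a long noncoding RNA of the nucleus, was at 2169 and 2901 CPM in the Tyrobp nulls, against 1284, 943 and 856 CPM in NLGF (log2 fold change 1.30, SE 0.20, adjusted p = 0.0178), with the overlapping gene Gm37376 called in the same direction. Abi3, an actin regulator and Alzheimer risk gene, was at 282 and 295 CPM in the Tyrobp nulls, against 180.4, 198 and 200.4 CPM in NLGF (log2 fold change 0.58, SE 0.10, adjusted p = 0.0389). Both were higher in each Tyrobp null than in any NLGF library. Il16, a chemoattractant of CD4+ cells, was at 233.9 and 302.1 CPM in the Tyrobp nulls, against 147, 128 and 144 CPM in NLGF (log2 fold change 0.94, SE 0.14, adjusted p = 0.017). Lst1, a leukocyte transcript of the MHC region, was at 95.2 and 92.6 CPM in the Tyrobp nulls, against 36.9, 29.7 and 43.5 CPM in NLGF (log2 fold change 1.35, SE 0.16, adjusted p = 0.0064). Ifi30, a lysosomal thiol reductase of antigen presentation, was at 111 and 88.3 CPM in the Tyrobp nulls, against 60.9, 55.3 and 60.9 CPM in NLGF (log2 fold change 0.75, SE 0.14, adjusted p = 0.0499), the only call among 15 genes of MHC class II presentation. Cd74, the invariant chain, was at 399 and 424 CPM in the Tyrobp nulls, against 131, 80 and 199 CPM in NLGF without passing (adjusted p = 0.244).

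A set of higher genes, grouped here by this order, had more CPM in Tyrobp-/-;NLGF replicate 1 than in replicate 2. The summed neutrophil markers, to which Hp and Padi4 belong, had the same order. With 2 libraries, such an order is a single difference. Hp, which encodes haptoglobin, was at 185 and 58.1 CPM in the Tyrobp nulls, against 0.016, 1.8 and 0.573 CPM in NLGF (log2 fold change 7.42, SE 1.40, adjusted p = 0.0474). Padi4, an enzyme that neutrophils use to modify histones, was at 18.8 and 4.03 CPM in the Tyrobp nulls, against 0, 0 and 0 CPM in NLGF (adjusted p = 0.0488). The mean of the nulls, 11.4 CPM, was at least 175-fold above 0.0653 CPM, the mean floor of 3 counts per NLGF library. Replicate 2 alone, at 4.03 CPM, lay nearer to that floor. Slc25a24, a mitochondrial carrier, was at 10 and 4.09 CPM in the Tyrobp nulls, against 0, 0 and 0 CPM in NLGF (adjusted p = 0.024). Its mean in the nulls, 7.05 CPM, was at least 108-fold above the same floor, with replicate 2 again nearer to it. Neither gene had a count in the NLGF libraries. S100a11 was at 129 and 43.6 CPM in the Tyrobp nulls, against 3.06, 5.41 and 5 CPM in NLGF (log2 fold change 4.27, SE 0.81, adjusted p = 0.0475). Plbd1, a phospholipase B-like protein gene, was at 105 and 48.2 CPM in the Tyrobp nulls, against 1.17, 2.1 and 3.91 CPM in NLGF (log2 fold change 4.99, SE 0.73, adjusted p = 0.015). Emb, a cell adhesion glycoprotein gene, was at 42.7 and 14 CPM in the Tyrobp nulls, against 1.31, 2.44 and 1.59 CPM in NLGF. Adgre5, the adhesion receptor CD97, was at 37.1 and 22.6 CPM in the Tyrobp nulls, against 2.82, 3.57 and 3.79 CPM in NLGF. Of the 52 higher genes, 12 (23.1%) were more than 1.5 times as high in replicate 1 as in replicate 2, against 16.2% of 14964 genes with at least 1 CPM, and 1 (Kdm6b) was so in replicate 2, against 13.8%. Among the neutrophil markers Hp and Padi4 passed, and among those of monocytes and dendritic cells Plbd1, S100a10, S100a11 and Nr4a1. None of the neutrophil calls remained with any 1 of the 5 libraries left out. The fit with the neutrophil covariate called 1 gene higher and 9 lower. The part of neutrophils or monocytes in the other higher genes was not tested further.

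**Figure D3:**
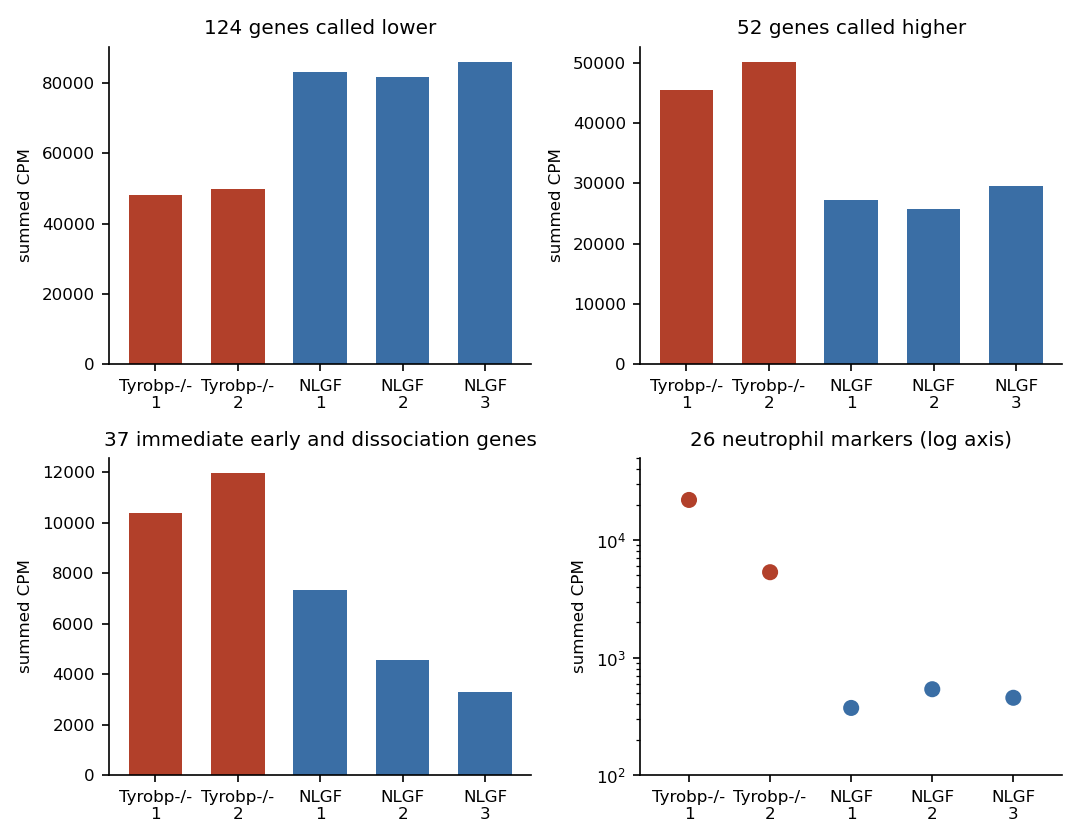
Summed CPM in each library, with Tyrobp-/-;NLGF left of NLGF, for the 124 genes called lower, the 52 called higher, the 37 genes of the immediate early and dissociation response and the 26 neutrophil markers (log axis). The lower and higher genes were chosen by their difference between these groups. Close sums of these genes within a group follow in part from that choice, since calls favour genes with little spread. Much of the higher sum comes from Cst3. The neutrophil sums of the Tyrobp-/-;NLGF libraries are 21970 and 5329 CPM.

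Several gene groups of microglial interest held no call in edgeR. Since 0.863% of all 20390 genes tested were called, a short list can lack a call without differing from the rest. Over all genes 2463 had an unadjusted p below 0.05, DESeq2 called 1035 and limma-voom 327. Of 36 interferon response genes none was called (3 at an unadjusted p below 0.05, 1 by DESeq2, 0 by limma-voom), of 24 Toll-like receptor pathway genes none (4, 3 and 1), of 20 MHC class I genes none (2, 2 and 0), of 9 Fc receptor genes none (2, 1 and 1) and of 23 inflammatory cytokine and inflammasome genes none (4, 3 and 1). Tnf was at 8.5 and 13.9 CPM in the Tyrobp nulls, against 4.42, 4.24 and 3.76 CPM in NLGF (adjusted p = 0.185). Ccl2, a monocyte attractant, was at 42.2 and 47.5 CPM in the Tyrobp nulls, against 15.4, 14.6 and 13.9 CPM in NLGF (adjusted p = 0.107). Of 29 microglial transcription factor genes none was called (10, 3 and 1). Spi1, the lineage factor PU.1, was at 339 and 350.4 CPM in the Tyrobp nulls, against 235, 243 and 300.2 CPM in NLGF (adjusted p = 0.245). Of the BHLHE and MiT family factors, Bhlhe40, a repressor of helix-loop-helix type, was at 9.26 and 3.63 CPM in the Tyrobp nulls, against 60.7, 62.5 and 72.4 CPM in NLGF (log2 fold change -3.34, SE 0.43, adjusted p = 0.00885), while its paralogue Bhlhe41 was at 51.7 and 44.6 CPM in the Tyrobp nulls, against 75.1, 68.8 and 63.1 CPM in NLGF (adjusted p = 0.245). The noncoding gene 0610040F04Rik overlaps Bhlhe40 and was called in the same direction. Of 22 chemoattractant receptor genes none was called (10, 3 and 0), although 19 had a positive fold change with a median of 1.06. Ccr2, a receptor of blood monocytes, was at 105 and 29.2 CPM in the Tyrobp nulls, against 8.59, 1.84 and 12.7 CPM in NLGF (adjusted p = 0.244). Fpr1, a formyl peptide receptor of neutrophils, was at 18.2 and 14.2 CPM in the Tyrobp nulls, against 0, 0 and 1.1 CPM in NLGF (adjusted p = 0.205). Cell cycle genes, 28 in number, had no call either (6, 1 and 0). The same held for 21 ion channel genes (5, 4 and 2), 22 genes of TGF-beta and BMP signalling (5, 3 and 0) and 23 autophagy genes (3, 1 and 0). Among markers of other cells, none of 18 for border-associated macrophages (2, 1 and 0), 12 for T, B and NK cells (2, 2 and 0), 12 for neurons (0, 1 and 0), 13 for astrocytes (0, 1 and 0), 7 for the oligodendrocyte lineage (3, 2 and 0), 10 for endothelium and mural cells (2, 1 and 0) and 5 for erythroid cells (0, 0 and 0) was called. The remaining lists held single calls or genes already described, with Tspan5 and Cd63 lower among 19 tetraspanins, Slc11a1 and Slc44a1 lower among 36 solute carriers, and Ank, Cadm1 and Tmem163 lower among 31 adhesion and guidance genes.

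Genes beside Tyrobp on chromosome 7 were examined because a targeted allele can carry flanking sequence of the line in which it was made. Of 294 genes tested within 10 Mb of Tyrobp, 4 were called (1.36%), against 0.856% of the other genes. Tyrobp itself is 1 of the 4, and without it 3 of 293 were called (1.02%). Hcst, which encodes the adaptor DAP10 and lies next to Tyrobp (chromosome 7, 30417712 to 30419854), was at 13 and 11 CPM in the Tyrobp nulls, against 44, 48.7 and 46.5 CPM in NLGF. Its groups did not overlap and it did not pass (log2 fold change -1.95, SE 0.40, adjusted p = 0.0635). Fxyd3 (chromosome 7, 31068172 to 31076704), a regulator of the sodium pump, was at 9.16 and 8.29 CPM in the Tyrobp nulls, against 1.22, 1.54 and 1.02 CPM in NLGF (log2 fold change 2.80, SE 0.39, adjusted p = 0.0123). Lgi4 (chromosome 7, 31059342 to 31070935), a secreted protein of the nervous system, was at 18.9 and 16.4 CPM in the Tyrobp nulls, against 2.18, 2.84 and 1.62 CPM in NLGF (log2 fold change 3.00, SE 0.42, adjusted p = 0.0123), and both genes overlap, so that their reads cannot be told apart. Gmfg (chromosome 7, 28437447 to 28448233), a regulator of the actin-branching complex in blood cells, was at 199.995 and 171 CPM in the Tyrobp nulls, against 73.3, 88.8 and 83.3 CPM in NLGF (log2 fold change 1.18, SE 0.13, adjusted p = 0.00423). The part of flanking sequence in these values was not tested.

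**Figure D4:**
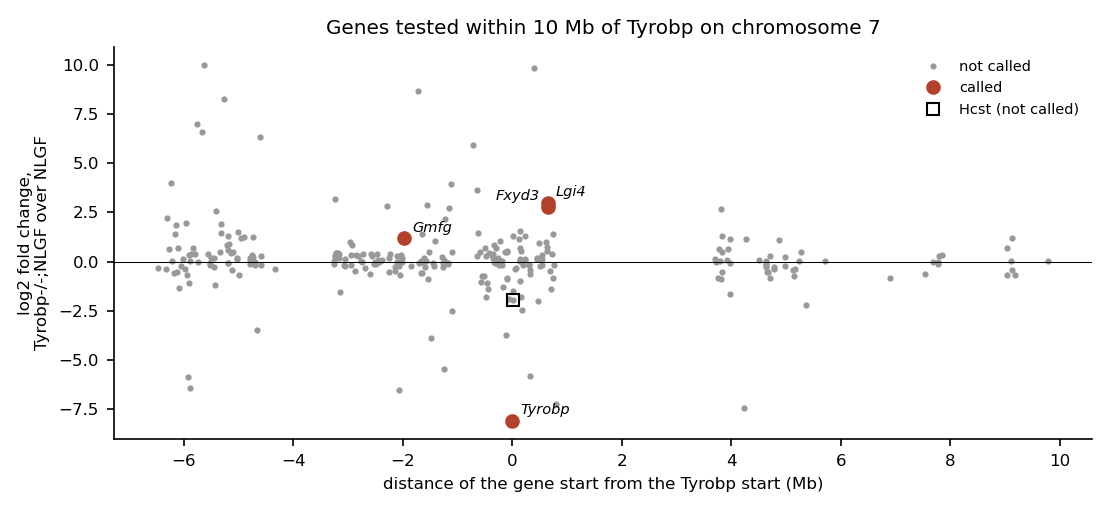
Log2 fold change (Tyrobp-/-;NLGF over NLGF) of the 294 genes tested within 10 Mb of Tyrobp, by distance of the gene start from the Tyrobp start in Mb. The 4 called genes are Tyrobp itself, Gmfg, Fxyd3 and Lgi4.

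The same loss on the background with 1 copy of Inpp5d gave a second reading in separate libraries. There, 183 genes were called in Tyrobp-/-;Inpp5d+/-;NLGF against Inpp5d+/-;NLGF (0.897%), 54 higher and 129 lower. All 52 higher and all 124 lower genes had the same sign there, with medians of 0.95 and -1.03. The share of equal signs over all genes tested is not given here. The title numbers separate Tyrobp-/- from other libraries on this background too. Of the 52 higher genes 22 were called higher there (42.3% of them, 40.7% of the higher genes called there), and of the 124 lower genes 76 were called lower (61.3% and 58.9%). Both comparisons share the fit and its estimate of spread, but no library. The neutrophil markers summed to 592.4, 11560 and 2995 CPM in Tyrobp-/-;Inpp5d+/-;NLGF, against 487.2, 383.4 and 611.7 CPM in Inpp5d+/-;NLGF, so 2 of 3 Tyrobp-/-;Inpp5d+/-;NLGF libraries were above all libraries of the other group. Spp1 was at 25.5, 34.5 and 44.1 CPM in Tyrobp-/-;Inpp5d+/-;NLGF, against 548, 613 and 601 CPM in Inpp5d+/-;NLGF. Igf1 was at 7.29, 21 and 15.3 CPM in Tyrobp-/-;Inpp5d+/-;NLGF, against 133, 118 and 107 CPM in Inpp5d+/-;NLGF. Socs3 was at 192, 224 and 229 CPM in Tyrobp-/-;Inpp5d+/-;NLGF, against 68.6, 38.5 and 60.5 CPM in Inpp5d+/-;NLGF. The order of the groups was thus the same as with both copies of Inpp5d, with no overlap. The difference of the Tyrobp effect between backgrounds was called for 0 of 20390 genes in edgeR. There, 958 genes had an unadjusted p below 0.05, beside 1020 expected if no gene differed. DESeq2 called 36 and limma-voom 0. The 36 included log2 differences too large to be read as sizes, such as -43.7 for Bcas1 and -25.5 for Tubb3, which was at 0 in the Tyrobp nulls. Others were moderate, such as -1.24 for Spp1. In edgeR the smallest adjusted p was 0.0779, for Fzd9 and Mamdc2. Fzd9, a Wnt receptor gene, was at 0 and 0 CPM in the Tyrobp nulls, against 3.25, 6.74 and 3.66 CPM in NLGF (adjusted p = 0.00199). The NLGF mean, 4.55 CPM, was at least 79.0-fold above 0.0576 CPM, the mean floor of 3 counts per Tyrobp null. On the other background Fzd9 was at 2.39, 2.09 and 1.33 CPM in Tyrobp-/-;Inpp5d+/-;NLGF, against 2.06, 2.13 and 3.8 CPM in Inpp5d+/-;NLGF, where the groups overlapped. Mamdc2 was at 2.07, 6.51 and 5.19 CPM in Tyrobp-/-;Inpp5d+/-;NLGF, against 80.9, 84 and 72.6 CPM in Inpp5d+/-;NLGF there. Ptpn22 was at 9.17, 5.81 and 2.71 CPM in Tyrobp-/-;Inpp5d+/-;NLGF, against 9.34, 5.36 and 2.51 CPM in Inpp5d+/-;NLGF, with a log2 fold change of 0.04 on that background. Without Tyrobp-/-;NLGF replicate 2 the difference passed for Gpnmb (log2 difference 4.97, adjusted p = 0.0472), and without Tyrobp-/-;Inpp5d+/-;NLGF replicate 1 for Mamdc2 (log2 difference -6.12, adjusted p = 0.000525).

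**Figure D5:**
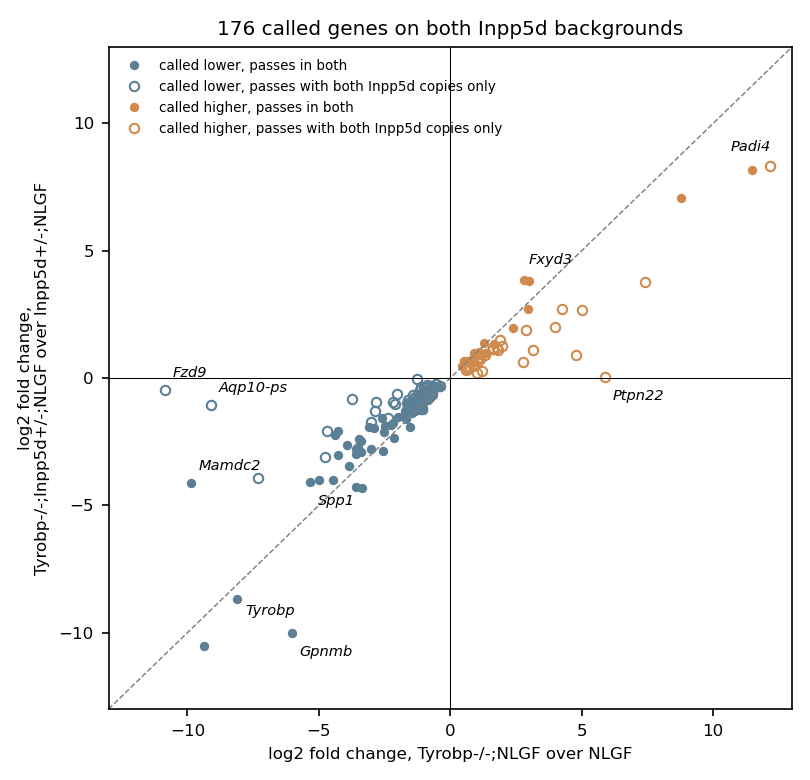
Log2 fold change on the background with 1 copy of Inpp5d (vertical) against that with both copies (horizontal) for the 176 called genes, filled where the gene passes in both comparisons, with the line of equal values dashed. All 176 genes lie in the quadrants of equal sign, and Fzd9, Aqp10-ps, Ptpn22 and Mamdc2 lie furthest from the line.

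Promoters of called genes were searched for 3 short motifs, since members of a group moved together. RefSeq promoters (GRCm38.p6, 250 bases before to 50 after the start) were matched for 33 higher and 85 lower genes and for 11828 genes tested. The E-box CACGTG was found on either strand in 10.6% of the lower, 18.2% of the higher and 11.3% of all promoters. The AP-1 site, TGACTCA or TGAGTCA on either strand, was found in 4.71% of the lower, 12.1% of the higher (4 of 33) and 4.74% of all. The ETS core GGAAGT on either strand was found in 34.1%, 42.4% and 32.3%. The lower genes therefore lay near the share of all promoters for each motif, and the higher shares rest on few genes. Shown are the 250 bases before the start for Spp1 (the called gene with the smallest adjusted p), Itgax (the CD11c gene, with matches of 2 kinds), Ctsd (with 2 E-boxes) and Fos (an immediate early gene that rose), 5′ to 3′ on the strand of the gene, with matches in capitals.
Spp1: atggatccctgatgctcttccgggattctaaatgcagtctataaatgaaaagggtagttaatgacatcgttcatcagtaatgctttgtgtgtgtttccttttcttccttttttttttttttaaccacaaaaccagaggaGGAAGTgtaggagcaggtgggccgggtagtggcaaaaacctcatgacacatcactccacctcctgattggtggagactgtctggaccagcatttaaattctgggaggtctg
Itgax: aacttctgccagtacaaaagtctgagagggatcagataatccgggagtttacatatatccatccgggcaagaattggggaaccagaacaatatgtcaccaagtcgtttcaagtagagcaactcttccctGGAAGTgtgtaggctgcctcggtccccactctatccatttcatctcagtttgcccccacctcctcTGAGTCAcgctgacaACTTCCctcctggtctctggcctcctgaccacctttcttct
Ctsd: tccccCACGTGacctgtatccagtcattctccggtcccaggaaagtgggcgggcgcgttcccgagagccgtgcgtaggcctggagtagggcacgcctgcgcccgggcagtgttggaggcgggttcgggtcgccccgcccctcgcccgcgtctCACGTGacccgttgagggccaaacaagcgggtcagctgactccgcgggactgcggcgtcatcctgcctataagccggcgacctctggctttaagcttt
Fos: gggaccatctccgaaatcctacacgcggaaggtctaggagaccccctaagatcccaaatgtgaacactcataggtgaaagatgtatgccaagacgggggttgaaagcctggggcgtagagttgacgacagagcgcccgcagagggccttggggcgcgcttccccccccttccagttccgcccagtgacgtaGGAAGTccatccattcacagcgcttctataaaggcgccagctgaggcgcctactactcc
They lie at chr5:104434861-104435110 (+), chr7:128129300-128129549 (+), chr7:142387828-142388077 (-) and chr12:85473640-85473889 (+). Spp1 has 1 ETS match, starting 111 bases before the start. Itgax has the AP-1 match 56 bases before the start and ETS matches at 121 and 41 bases. Ctsd has 2 E-boxes, the nearer 98 bases before the start, and Fos an ETS match at 59 bases. A match is a description of letters and says nothing of binding.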

How the data were processed

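RNA of sorted CD11b+/CD45+ brain cells was prepared with RNeasy Plus Micro and SMART-Seq v4, which does not mark strand, per the labels' protocols. The submitters' processing notes name STAR 2.7.3a, featureCounts 1.6.4 and GRCm38.p6/mm10. The deposited values are raw read counts per gene in 55401 rows. The annotation release, the strand setting and the treatment of multimapping reads, not given in the sources used here, decide how reads of overlapping genes were counted. All 37 mitochondrial rows hold 0 counts.

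Genes were kept by edgeR's filterByExpr (minimum count 10, minimum total 15), scaled by TMM and tested with edgeR 4.0.16's quasi-likelihood test (limma 3.58.1, R 4.3.3), with 1 coefficient per genotype over all 11 libraries. P-values were adjusted by Benjamini-Hochberg over 20390 genes. DESeq2 1.42.0, limma-voom, other scalings and filters, a neutrophil marker covariate and fits without single libraries were the alternatives. The labels do not say how libraries relate to animals, and the p-values reflect only how far these libraries spread, which may be technical. Floors of 3 counts cover counting error only. The procedure was tested on simulated counts of 19513 genes, where 1 of 19313 unchanged genes was called.

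The members and all 59 gene lists were chosen with earlier results of these data known. Genes named were fixed by rule: the 20 higher and 20 lower called genes with the largest fold changes at 5 CPM or more, the 10 in each direction with the largest CPM difference, the 5 smallest p, called list members, up to 3 members of lists without a call, called neighbours of Tyrobp and unlisted called genes of at least 50 CPM. The markers S100a8 and Csf1r and the genes Fzd9, Adam10, Axl, Bhlhe41, C1qb, Ccl2, Ccr2, Cd74, Ctse, Ctsz, Cx3cr1, Dhcr7, Dkk2, Dusp1, Fpr1, P2ry12, Spi1 and Sqle were chosen after their values were seen. Promoters come from RefSeq tables of GRCm38.p6. The results of a few genes are not reported here.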

Additional observations from a re-analysis of the deposited data

How the results depend on the processing

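The total of 176 called genes (52 higher, 124 lower) was 1035 (469, 566) in DESeq2, 327 (135, 192) in limma-voom, 380 (148, about 230) at an adjusted p below 0.1, 77 (18, 59) when only the 5 libraries of both groups were fitted, 40 (5, 35) against a fold threshold of 1.5, 10 (1, 9) with the neutrophil covariate and 27 (3, 24) without the 2 libraries richest in S100a8. With a stricter filter 87 genes were higher. Leaving out 1 of the 11 libraries at a time gave 31 to 201 genes, with 5 to 68 higher and 25 to 133 lower. The genes whose Tyrobp effect differed between Inpp5d backgrounds, 0 in edgeR, were 36 in DESeq2 and 0 to 1 with a library left out. No called gene changed sign under any of these settings. The groups did not overlap for any called gene, so leaving out libraries or rescaling could hardly reverse a sign. Of the 176 genes, 176 were called in DESeq2, 164 in limma-voom, 31 without each Tyrobp-/-;NLGF library and 10 with the covariate, where their median SE was 0.355 (higher) and 0.359 (lower), against 0.196 and 0.202. The median log2 fold change of the 52 higher and 124 lower genes was 1.19 and -1.34 with the covariate, and 1.39 and -1.37 without the 2 libraries. It was 1.33 and -1.38 over all libraries. Under RLE and upper-quartile scaling 174 and 175 of the 176 were called again, and no filter kept 145. The cause of these differences was not tested, except that the fits without a library hold fewer samples. The ETS shares counted on the gene's strand only were 20% of lower, 24.2% of higher and 18.5% of all promoters. No paired analysis was possible because the groups' libraries carry no shared replicate number in the labels. With 2 libraries in the Tyrobp-/-;NLGF group, most 2-fold changes lie below what these libraries can call.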

Other observations

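A few transcripts were at or near 0 in both Tyrobp-/-;NLGF libraries and did not pass the test with both copies of Inpp5d. Cspg4, a proteoglycan gene known from pericytes and oligodendrocyte precursors, was at 0 and 0 CPM in the Tyrobp nulls, against 12.9, 9.88 and 8.61 CPM in NLGF (adjusted p = 0.152). On the background with 1 copy of Inpp5d it was at 0, 0 and 0 CPM in Tyrobp-/-;Inpp5d+/-;NLGF, against 6.03, 0.161 and 24.1 CPM in Inpp5d+/-;NLGF, so that 5 of 5 Tyrobp-/- libraries held 0 counts, while Inpp5d+/-;NLGF replicate 2 was near 0 as well. Flt1, a receptor of vascular endothelial growth factor, was at 0 and 0 CPM in the Tyrobp nulls, against 7.85, 6.74 and 6.08 CPM in NLGF (adjusted p = 0.0871) and at 0.0377, 0.143 and 2.61 CPM in Tyrobp-/-;Inpp5d+/-;NLGF, against 9.04, 15.8 and 15 CPM in Inpp5d+/-;NLGF. The endothelial marker Cldn5 was at or near 0 in all of these libraries. Dkk2, a secreted Wnt regulator, was at 0 and 0.0185 CPM in the Tyrobp nulls, against 5.27, 8.58 and 3.47 CPM in NLGF (adjusted p = 0.0566) and at 0, 0 and 0.181 CPM in Tyrobp-/-;Inpp5d+/-;NLGF, against 5.11, 5.38 and 3.8 CPM in Inpp5d+/-;NLGF. Colec12, a scavenger receptor gene, was at 0.0398 and 0 CPM in the Tyrobp nulls, against 1.8, 2.84 and 2.42 CPM in NLGF (adjusted p = 0.108) and at 0, 0.0318 and 0 CPM in Tyrobp-/-;Inpp5d+/-;NLGF, against 5.68, 0.522 and 9.99 CPM in Inpp5d+/-;NLGF, where it passed. These values are descriptions of single genes, and those of Cspg4, Flt1, Dkk2 and Colec12 do not overlap between the groups with both copies of Inpp5d.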
